A study of Mus musculus with 6 samples.

Results

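The resting transcriptome of mIMCD3 cells, an epithelial line of the mouse inner medullary collecting duct, was described from the 3 vehicle-treated arrays among the 6 arrays of the series. These arrays were chosen by their label alone, as the control of each of 3 replications. No gene was tested between vehicle and hormone, though the bands were also read on the aldosterone arrays. The cells had received vehicle for 1 h before total RNA was taken. The other 3 arrays came from cells given aldosterone for 1 h in the same replications. The labels name no genotype, passage or hormone dose, and 1 line stands for the tissue. As background, mIMCD3 cells were established from mice carrying the SV40 early region, so they divide in culture.

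The collecting duct sets the final composition of urine. Its principal cells take up sodium through an epithelial channel under aldosterone and take up water through aquaporin-2 under vasopressin. Its intercalated cells move acid and base, and the inner medulla also handles urea and tolerates high osmolality. A cultured line may keep some of these functions and lose others, which is why the levels of the defining genes before any hormone matter to a study of aldosterone.

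Each gene was represented by its brightest probe set, which gave 8251 genes. Their intensities were scaled to a shared trimmed mean, converted to log2 after adding 69.5, and averaged over the 3 arrays. A gene's percentile is its place among all 8251 by that mean. The top 10% held 826 genes, with signals of 8956 units or more. No detection call was used; instead, genes of other tissues gave the reference for low signal. These were 114 genes such as hormones, lens crystallins and milk proteins. A gene at or below their 75th percentile, 544 units, was placed near background. This covered 2679 genes (32.5%), and 4746 genes (57.5%) lay between the bands. Counted on every vehicle array separately, 670 genes (8.12%) were in the top 10% on all 3 and 2431 (29.5%) were near background on all 3.

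Signal depends on how well a probe set binds as well as on how much transcript is present, so percentiles place probe sets and do not compare amounts between genes. The size of this limit could be read from genes with several probe sets. Among 2073 such genes, the median gap between the brightest and the dimmest probe set was 1.81 on the log2 scale. The median SD of the same genes between the 3 arrays was 0.261. Of 292 such genes in the top 10%, 98 (33.6%) had another probe set near background. Krt18, for example, read 17400 ± 1962 (SD, n = 3 arrays) on 1 probe set and 122 ± 96.7 on the other. A place near background therefore does not show that a transcript was absent.

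The genes of the highest signal served protein synthesis, the cytoskeleton and glycolysis. Rpl41, a protein of the large ribosomal subunit, was first, with 202209, 156906 and 168274 units on the vehicle arrays of replications 1, 2 and 3. Eef1a1, the elongation factor that brings tRNA to the ribosome, followed with 159113, 124382 and 137715 units. On both genes the array of replication 1 read highest and that of replication 2 lowest. Among the 30 brightest genes were 8 more on the list of ribosomal proteins: Rps24, Rplp0, Rps28, Rpl7, Rpl19, Rpl8, Rps18 and Rps7. Others were the tubulin Tuba1c (107423 ± 9418), the cytoplasmic actin Actg1 (93916 ± 18784), the actin-binding peptide Tmsb10 (88233 ± 11669) and the growth-associated protein Tpt1 (120088 ± 19811). Glycolysis was represented by Ldha, Tpi1, Pkm and Aldoa, and heterotrimeric G proteins by Gnas (86595 ± 5070), the stimulatory alpha subunit that vasopressin receptors use, and Gnai2. The remaining genes were Gm15772, Rps3a1, Erdr1, Hmgn1, S100a6, Ybx1, App, Jund, Bsg and Ran. Rps3a1 also codes for a ribosomal protein but was not on that list, so its counts leave it out. Jund, an AP-1 subunit, had the largest SD of log2 values of these 30, at 97471, 54676 and 51402 units.

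As lists, ribosomal proteins had 18 of 33 measured members in the top 10% and 9 (27.3%) near background, against 32.5% of all genes. The 9 near background included Rps14 (132, 385 and 108 units), Rps15 (12.5, 357 and 35.4 units) and Rpl39l, a paralog of Rpl39. Rps14 and Rps15 are parts of every small subunit; the cause of their low readings was not tested. Several probe sets of the bright members, among them those of Rps28, Rpl7 and Rpl41, carry a suffix that marks sequence shared with other transcripts. So do those of Tuba1c, Aldoa, Erdr1, Gnai2, Gnas and Pkm among the 30 brightest genes, so these readings may not be specific to 1 gene. Translation factors had 14 of 27 in the top 10%, with Pabpc1, the poly(A)-binding protein, at percentile 99.5 and Eef2, the translocation factor, at 99.5. Eef1g was near background, at 199, 122 and 12.4 units.

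Energy metabolism was read mostly in the upper part of the range. Of 16 glycolysis genes measured, 8 lay in the top 10% and 0 near background, a band that held 32.5% of all genes. Pfkl, the liver-type phosphofructokinase, had 41789, 41635 and 41730 units, so its arrays nearly coincided. Hk1, the hexokinase that starts glycolysis, read 47482, 37517 and 33036 units, and its relative Hk2 was at percentile 83.0. Oxidative phosphorylation had 33 of 71 subunits in the top 10% and 8 (11.3%) near background. The cytochrome oxidase subunits Cox6a1 and Cox6c were at percentiles 99.3 and 99.1, and Atp5a1, the alpha subunit of ATP synthase, was at 98.6. Cox6a2 and Cox7a1, forms typical of heart and muscle, were near background at percentiles 21.0 and 16.5. So was Cox8a, at percentile 8.71, a form found in most tissues.

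Protein quality control genes were also bright. Proteasome and ubiquitin genes had 23 of 44 in the top 10%, led by the ubiquitin-like Sumo3 (98.9) and the core subunits Psma2 (98.5) and Psmb4 (98.2). Cytosolic chaperones had 13 of 37 there, with Hsp90aa1 at percentile 99.4 and the chaperonin subunit Cct5 at 98.4. Folding genes of the endoplasmic reticulum had 10 of 34, with Hsp90b1 (98.9) and Hspa5 (98.3), the main chaperones of that compartment. Calr, the lectin chaperone calreticulin, was near background at percentile 1.70. Redox and metal-binding genes had 12 of 33 in the top 10%, including Gstm1, a glutathione transferase (59204 ± 5666), and the ferritin heavy chain Fth1 (43124 ± 1744). The metallothioneins Mt1 and Mt2 were at percentiles 95.9 and 94.6.

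**Figure D1:**
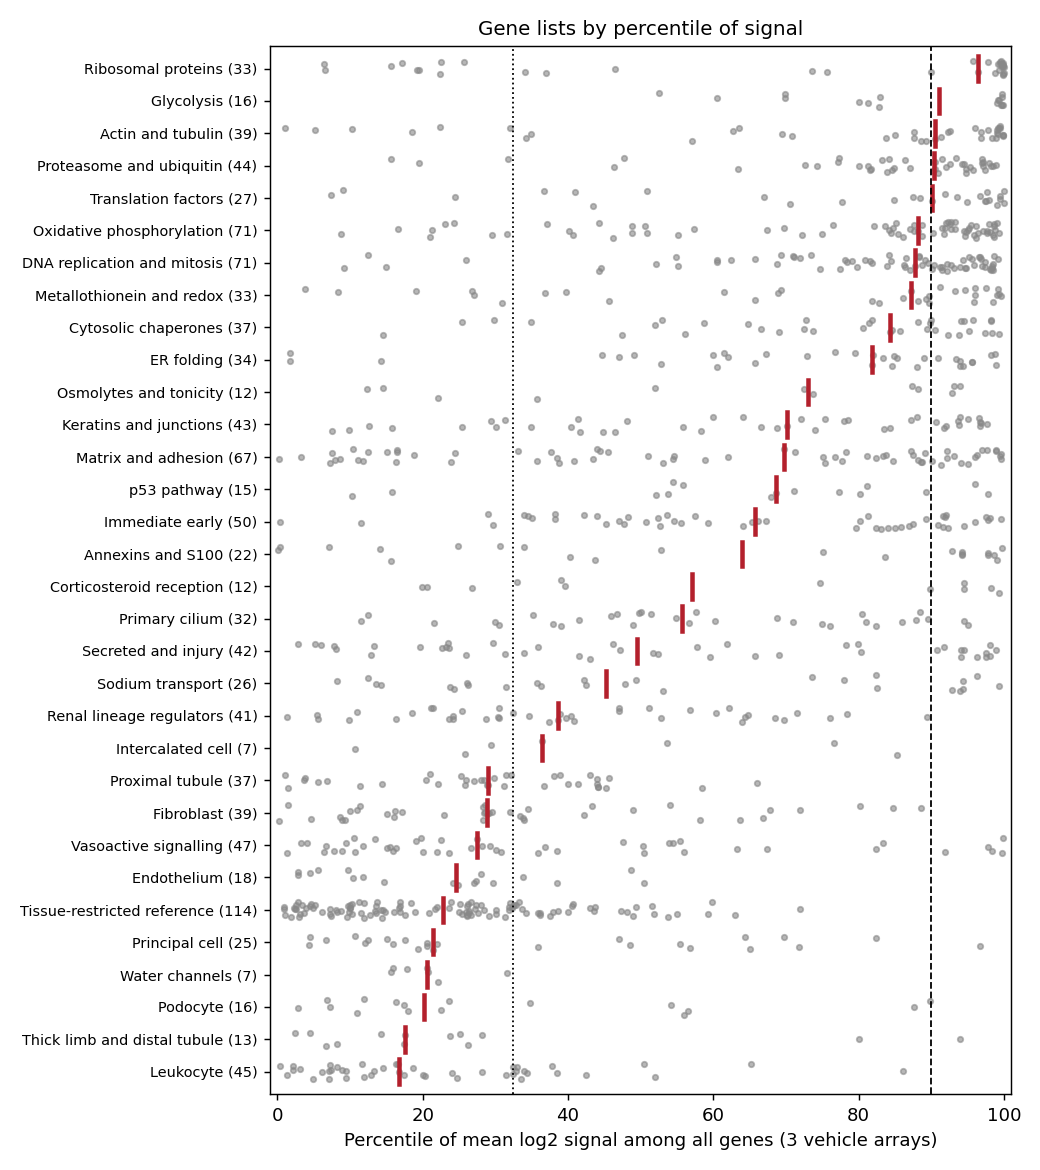
Percentile of every measured gene of 32 lists among 8251 genes (grey points; number of genes in parentheses), with the list's median as a red bar. The dashed line marks the 90th percentile and the dotted line the limit of low signal; ribosomal proteins had the highest median (96.5) and leukocyte markers the lowest (16.7).

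Genes of dividing cells were prominent. Of 71 genes of DNA replication and mitosis, 30 were in the top 10% and 37 between, with a median percentile of 87.8. Near background were 4 (5.63%), against 32.5% of all genes. The tubulin regulator Stmn1 read 39172, 40291 and 42133 units, and the condensin subunit Smc4 read 36876, 24428 and 33632 units. Cdk4, the kinase of the G1 phase, was at percentile 98.5 and Pcna, the sliding clamp of DNA polymerase, at 98.4. The 4 near background were Ccne2, Ccnd2, Cenpe and Mcm6. Mcm6 belongs to a helicase whose other measured subunits, Mcm2, Mcm3, Mcm4, Mcm5 and Mcm7, were all in the top 10%, while it read 82.0, 120 and 122 units. Among 15 genes of the p53 pathway, Cdkn1a, the inhibitor of cyclin-dependent kinases, read 3463, 3413 and 2658 units at percentile 67.9, and Mdm2 was at 77.2. The brightest of that list, Plk3, read 18403, 33986 and 20332 units.

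Keratins and junction genes of simple epithelia had strong signal. Krt8, a keratin of simple epithelia, read 22352, 28010 and 18972 units, all in the top 10%. Its partner Krt18 read 19551, 15708 and 16942 units, and Krt19 read 18667, 18776 and 15960. Cdh16, a cadherin largely restricted to kidney tubules, read 15660, 19608 and 17980 units. The 3 arrays of each of these genes lay within 1.5-fold of each other. In all, 12 of 43 members of this list were in the top 10%, among them the catenins Ctnnb1, Ctnna1 and Ctnnd1, the desmosomal proteins Dsp and Pkp2, and the tight junction proteins Tjp1 and F11r; with the dimmest probe set of each gene 6 were. Cdh1, the classical epithelial cadherin, was at percentile 66.5 (3111 ± 1093) and Epcam at 44.9 (1169 ± 478).

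Claudins, which set the ion selectivity of tight junctions, ran from Cldn5 at percentile 7.53 to Cldn4 at 88.0, with none in the top 10%. Cldn4 read 13193, 10952 and 3233 units and Cldn7 read 5286, 6361 and 1877, so both were lowest on the array of replication 3. Krt7 had the same order at the low end, with 6361, 5663 and 2075 units. Cldn3 was at percentile 64.0. Cldn8, another claudin of the collecting duct, was near background at 29.4, as were Ocln (660, 616 and 57.1 units), Cldn2, Cldn5 and Cldn6. Of the 43 genes, 25 were lowest on the array of replication 3, against 2844 of all 8251 genes (34.5%), and 5 were highest there.

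Regulators of the renal lineage lacked members in the top 10%, and their median percentile was 38.7. Pax8, the paired box factor of nephric epithelium, read 8003, 9559 and 8203 units at percentile 89.4. Hoxb6, Hoxb7 and Hoxb9 were at 78.4, 64.3 and 52.8. Hoxb7 marks the ureteric bud, from which collecting ducts grow. Tfcp2l1, a factor of the mature collecting duct, read 3739, 3107 and 3308 units at percentile 69.7. Pax2, the other paired box factor of this lineage, was at 40.8 with 906 ± 81.2 units. Of 41 regulators measured, 0 were in the top 10% and 23 were between, a band that held 57.5% of all genes. By their mean 18 (43.9%) were near background, against 32.5% of all genes. On all 3 arrays 13 of the 41 were so, against 29.5% of all genes. Those near background by their mean included Ret, the receptor of the ureteric bud tip (percentile 1.28), and Wnt11, its downstream signal (5.55). Gata3 (21.4) and Hnf4a, a factor of the proximal tubule (9.89), were there too.

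Genes that carry out the functions of principal cells were mostly at low signal. Aqp2, the vasopressin-regulated water channel, read 140, 323 and 280 units. Avpr2, the receptor that controls it, read 508, 136 and 235 units. Hsd11b2, which shields the mineralocorticoid receptor from glucocorticoids, read 198, 341 and 192 units, and its second probe set was near background too. All 9 of these values lay under the limit of low signal. Aqp4 of the basolateral membrane (percentile 16.0), the potassium channel Kcnj1 (17.6), the potassium channel subunit Kcne1 (19.4), and the sodium pump modulator Fxyd2 (12.4) were near background as well. Of 25 principal cell genes measured, 14 (56.0%) were near background on all 3 arrays, against 29.5% of all genes. Of the others 10 were between, and Krt19 alone was in the top 10%. Sodium channel subunits, Aqp3, the mineralocorticoid receptor and the urea transporter Slc14a2 were not analysed here.

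The other principal cell genes near background were Gata3, Ednrb, Stc1, Ptger1, Ptger3, Calb1 and Elf5. Above it were the adenylyl cyclase Adcy6 (5102, 5106 and 7465 units), which makes cyclic AMP after vasopressin, the adhesion protein Npnt (71.9), Tfcp2l1, the sialyltransferase St6gal1 (65.1), Hoxb7, Wnt7b (56.8), Dhh (48.5), Hoxd8 (47.0) and the prostaglandin synthase Ptges (35.8). Ptger4, a prostaglandin E2 receptor, read 4772, 1548 and 842 units, more than 5-fold apart. All 7 water channels measured were near background by their mean, from Mip at percentile 15.7 to Aqp8 at 31.6, against 32.5% of all genes. On every array 6 of them were so, against 29.5% of all genes. Aqp1, Aqp7 and Aqp9 were the remaining members, and Aqp9 read 113, 562 and 89.2 units.

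Receptors and transducers of hormones that act on the duct fell in different bands. Of 47 vasoactive genes, 28 (59.6%) were near background, against 32.5% of all genes. Among the 28 were Ptger2 (percentile 3.19), the angiotensin receptor Agtr2 (4.12), the parathyroid hormone receptor Pth1r and the calcitonin receptor Calcr (1.30). The 5 in the top 10% were the G protein subunits Gnas, Gnai2 and Gnai3 and the protein kinase A subunits Prkar1a (98.4) and Prkacb (91.9).

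Sodium transport genes lay in every band. Slc12a2, the basolateral cotransporter of sodium, potassium and chloride, read 12557, 11865 and 9529 units. Atp1b3, a beta subunit of the sodium pump, read 11995, 13661 and 13328 units, while Atp1b1 was at percentile 53.1. The ubiquitin ligases Nedd4 and Nedd4l, the latter known for removing sodium channels from the membrane, were at 94.4 and 82.5. Sgk1, the kinase that restrains Nedd4l, was at percentile 42.2 before hormone, with 1262, 959 and 762 units. Altogether 6 of 26 were in the top 10% and 9 (34.6%) near background, against 32.5% of all genes. Among osmolyte genes, the taurine transporter Slc6a6 was at percentile 87.3, and the betaine transporter Slc6a12, which hypertonic medium induces, was at 12.3.

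The chaperones that hold steroid receptors were bright, while the receptor and the converting enzymes were dim. Hsp90aa1 read 56018, 41366 and 45908 units, Hspa8 30299, 20682 and 28438, and Fkbp4, an immunophilin of the receptor complex, 13478, 15145 and 10957. Stip1 was at percentile 89.8, Fkbp5 at 74.7 and H6pd, which supplies cofactor to Hsd11b1, at 94.5. The glucocorticoid receptor Nr3c1 read 631, 253 and 1048 units and sat at percentile 32.9, just above the limit of low signal. Its coactivators Ncoa1, Ncoa2 and Ncoa3 were at 39.1, 26.8 and 39.5. Hsd11b1 was near background with 276, 259 and 153 units.

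**Figure D2:**
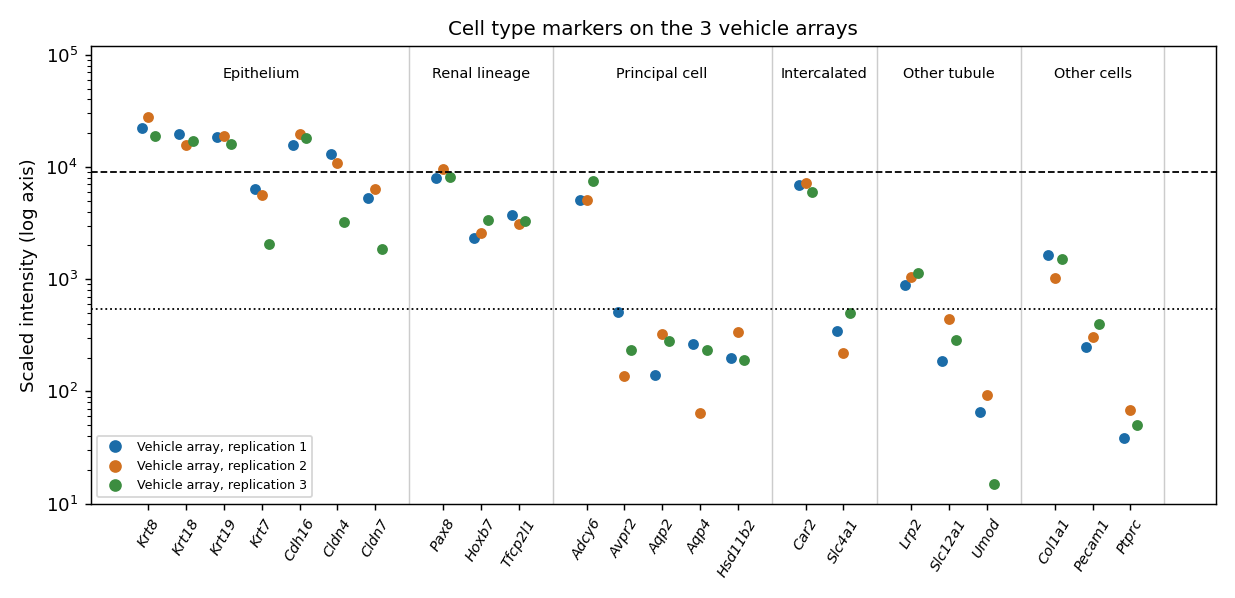
Scaled intensity on a log axis of 23 marker genes on the vehicle arrays of replications 1, 2 and 3 (1 point per array). The dashed line is the lower limit of the top 10% and the dotted line the limit of low signal; Krt8, Krt18, Krt19 and Cdh16 lie above the first on every array, and Aqp2, Avpr2, Aqp4 and Hsd11b2 below the second.

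Markers of other cells were checked on the same scale, where 32.5% of all genes and 56.0% of principal cell genes were near background. Because the limit was drawn from them, 74.6% of the tissue-restricted genes were near background by definition. A list with a share close to that reads like the reference genes and no lower. The leukocyte list shares 4 genes with that reference. In RNA of whole cultures, fewer cells of a type and less RNA per cell cannot be told apart. Of 45 leukocyte markers, 33 (73.3%) were near background and 0 in the top 10%, with Ptprc, the common leukocyte antigen, at 38.6, 67.9 and 50.1 units. Of 18 endothelial markers 14 (77.8%) were near background, including Pecam1 and Cdh5. Of 37 proximal tubule markers 23 (62.2%) were near background, and of 13 markers of the thick limb and distal tubule 11 (84.6%) were. The proximal tubule count ran from 11 to 35 over other choices of probe set and of the reference for low signal, with the limit set anew for each. Umod, the main protein of the thick limb, read 66.1, 93.0 and 14.9 units. Of 39 fibroblast markers 23 (59.0%) were near background, with Vim at percentile 28.4 and Pdgfrb at 9.32. This count was 13 with the reference set at its list's median and 14 with unlettered probe sets only. Of 16 podocyte markers 10 (62.5%) were near background. Of 7 intercalated cell markers measured, 3 (42.9%) were near background, including the anion exchanger Slc4a1. The summed signal of the leukocyte list was 22183, 31879 and 21440 units on the arrays of replications 1, 2 and 3. That of the fibroblast list was 43978, 52953 and 49429.

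Some members of these lists nevertheless had signal. Cd14, the lipopolysaccharide co-receptor, read 7153, 8340 and 5628 units at percentile 86.1. Fn1, which codes for fibronectin, read 7698, 9164 and 7582 units, and Sparc 6439, 6256 and 6909. Col1a2 was at percentile 80.2 but Col1a1, its partner chain, at 49.0, and Col3a1 was near background at 16.1. Car2, carbonic anhydrase of intercalated cells, read 6939, 7187 and 6046 units at percentile 85.3. Pvalb, known from the distal convoluted tubule, was at 80.0 on 1 probe set (5231 ± 461) and at 59.7 ± 15.6 units on the other. Wnk1, the kinase that regulates cation-chloride cotransporters, was the only gene of these 7 lists in the top 10%, with 11789, 10910 and 14980 units.

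Dim genes tended to read highest on the array of replication 2. Of the genes near background 1437 of 2679 (53.6%) were highest there, against 3376 of all 8251 genes (40.9%). The same was true of 75 of the 114 tissue-restricted genes and 31 of the 45 leukocyte markers. The limit of low signal was 603, 767 and 582 units when set on each array alone. The part this plays in the bands was not tested.

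Matrix, adhesion and secreted proteins were found in all bands. Of 67 matrix and adhesion genes, 16 were in the top 10% and 17 (25.4%) near background, against 32.5% of all genes. Bsg, a glycoprotein that escorts lactate transporters, read 74358, 62687 and 55113 units, Lgals1, a galectin, 59199, 61585 and 60986, and Itgb1, the common beta chain of matrix receptors, 46623, 46056 and 56013. Basement membrane was represented by Col18a1 (97.7), Agrn (96.3) and Col4a1 (96.0), while Col4a3 of the glomerular membrane was near background at 7.26. Of 22 annexins and S100 proteins, 9 were in the top 10%, led by S100a6 (72609 ± 10588) and Anxa2 (38593 ± 1490). Near background were 7 (31.8%), against 32.5% of all genes. S100a16 and Anxa10 were at percentiles 0.0727 and 0.388.

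Of 42 secreted and injury-associated genes, 11 were in the top 10%, 16 between and 15 (35.7%) near background, against 32.5% of all genes. The list's median percentile was 49.4. Lcn2, the siderophore-binding protein that injured tubules secrete, read 56840, 43545 and 17970 units. Its second probe set read 1323 ± 516. The chemokines Ccl2 and Cxcl1, which attract monocytes and neutrophils, read 48780, 24448 and 12543 units, and 45802, 21344 and 10513 units. All 3 genes were highest on the array of replication 1 and lowest on that of replication 3. The copper carrier Cp was at percentile 97.5 and Wfdc2 at 94.5. Il6 was near background with 120, 77.1 and 54.3 units, as were Il1b and Hgf, at percentiles 5.21 and 2.81.

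Genes of the primary cilium, an organelle for which this line is often used, lay in the middle of the range. Of 32 measured, 2 were in the top 10% and 25 between, a band that held 57.5% of all genes. Near background were 5 (15.6%), against 32.5% of all genes, and the median percentile was 55.8. Cetn3, a centrin of the basal body, read 13938, 12717 and 15656 units. Ift88, a core protein of intraflagellar transport, read 7016, 10881 and 8685 units at percentile 89.6, and Ift27 was at 88.4. The hedgehog effectors Gli1 and Gli2, which act through the cilium, were near background at 11.5 and 12.5.

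Promoters differed between the bands in base composition. RefSeq promoters of assembly GRCm38.p6, running from 250 bases before to 50 after the start of transcription, were matched by symbol to 6576 genes; the 5268 genes with a single promoter were used. A promoter was counted as CpG-rich when at least 50% of its bases were G or C and its CpG ratio, observed over the number that its C and G content gives, was at least 0.6. This held for 83.6% of 531 promoters in the top 10%, 73.5% of 3061 between and 33.9% of 1676 near background. Over all 5268 promoters of these genes the share was 61.9%, and over all 32851 promoters of the table it was 33.5%. The promoters near background thus lay below the genes they were drawn from. The median number of CpG sites was 24, 22 and 8 from the highest to the lowest band.

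Motifs were searched as exact letters on both strands over the 300 bases, except TATAAA, which was taken on the coding strand with its first base at -40 to -20. TATAAA was found in 14 promoters (2.64%) of the top 10%, 61 (1.99%) between and 111 (6.62%) near background, against 3.53% of the 5268 promoters and 1.99% of the whole table. The GC box GGGCGG was in 71.6%, 67.6% and 41.7%, against 59.8% of the 5268 and 35.7% of the table. CCAAT was in 39.5%, 39.7% and 37.9%, against 39.1% and 37.4%, so its share was nearly the same in every band. The E-box CACGTG was in 10.9%, 10.8% and 7.76%, against 9.83% and 7.15%. By list, CCAAT was in 70.8% of 48 cell cycle promoters. TATAAA was in 15 of 81 promoters (18.5%) of the tissue-restricted list, but also in 4 of 14 (28.6%) of annexins and S100 proteins, 5 of 27 (18.5%) of secreted and injury genes, 5 of 33 (15.2%) of immediate early genes and 3 of 22 (13.6%) of keratin and junction genes. A match describes letters only and is not shown to be a site.

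The following stretches end at the base before the start of transcription and run 5′ to 3′ on the coding strand, in GRCm38.p6. They are shown to let bright housekeeping genes be read beside epithelial genes, a gene of wide spread and a gene near background. Capitals mark TATAAA, the GC box on either strand, the CCAAT box on either strand, and the CArG box of serum response factor, which was found in 1.59% of the 5268 promoters and 1.63% of the table; the E-box is not marked.
Eef1a1 (chr9:78481725-78481844, minus strand): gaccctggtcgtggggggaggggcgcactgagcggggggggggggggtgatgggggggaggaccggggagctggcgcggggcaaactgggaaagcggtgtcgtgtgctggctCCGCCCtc
Actg1 (chr11:120348496-120348615, minus strand): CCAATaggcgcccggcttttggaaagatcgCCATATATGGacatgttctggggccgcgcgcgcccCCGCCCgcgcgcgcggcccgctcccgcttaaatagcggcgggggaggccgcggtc
Rplp0 (chr5:115559347-115559466, plus strand): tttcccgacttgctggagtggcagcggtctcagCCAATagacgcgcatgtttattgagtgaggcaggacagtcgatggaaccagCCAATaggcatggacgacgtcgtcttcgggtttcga
Krt8 (chr15:102004343-102004462, minus strand): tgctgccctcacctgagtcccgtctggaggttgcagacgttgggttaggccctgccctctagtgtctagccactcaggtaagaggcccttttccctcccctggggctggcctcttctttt
Krt18 (chr15:102028096-102028215, plus strand): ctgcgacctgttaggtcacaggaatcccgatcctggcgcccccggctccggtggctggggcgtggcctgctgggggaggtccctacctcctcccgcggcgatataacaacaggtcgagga
Cldn4 (chr5:134946935-134947054, minus strand): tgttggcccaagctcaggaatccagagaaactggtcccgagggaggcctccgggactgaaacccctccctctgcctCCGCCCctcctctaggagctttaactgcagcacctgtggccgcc
Ccn1 (chr3:145649986-145650105, minus strand): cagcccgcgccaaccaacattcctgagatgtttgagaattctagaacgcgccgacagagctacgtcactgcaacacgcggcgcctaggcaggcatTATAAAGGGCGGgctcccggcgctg
Aqp2 (chr15:99578936-99579055, plus strand): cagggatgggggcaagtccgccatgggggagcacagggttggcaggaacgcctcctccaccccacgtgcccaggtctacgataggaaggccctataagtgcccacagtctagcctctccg

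Actg1 holds 50 CpG sites in its 300 bases and Rplp0 24, against 8 in Aqp2 and 9 in Cldn4. Krt8, however, is in the top 10% with 6 CpG sites and a ratio of 0.238, so the composition of the band is not that of each of its genes. Ccn1 carries TATAAA at -25 directly before a GC box at -19, and Actg1 has a CArG box at -90. In Aqp2, Krt8 and Krt18 none of the marked motifs lies in the printed window, though that of Aqp2 holds the E-box letters.

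**Figure D3:**
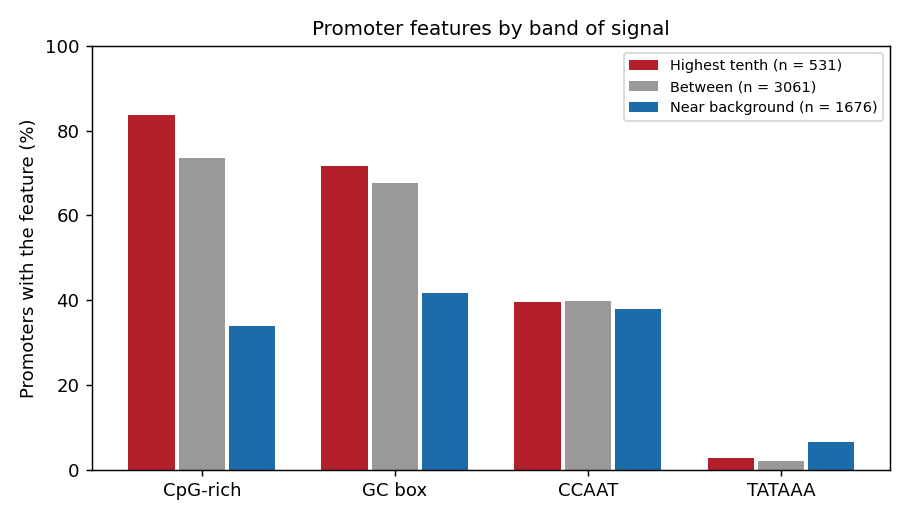
Percent of promoters with each feature by band of signal, for genes with 1 promoter (531, 3061 and 1676 promoters). The CpG-rich share runs from 83.6% to 33.9% from the top 10% to near background and TATAAA from 2.64% to 6.62%, while CCAAT stays between 37.9% and 39.7%.

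The vehicle arrays agreed most where signal was high. The median SD of log2 values over the 3 arrays was 0.162 in the top 10%, 0.238 between and 0.472 near background. The highest and the lowest array differed at least 2-fold, on the scale with the added pseudocount, for 13 genes (1.57%) of the top 10%, 503 (10.6%) between and 1156 (43.2%) near background. Over all genes, log2 values of pairs of arrays correlated with Pearson's r of 0.956 to 0.967 and Spearman's rho of 0.960 to 0.971; these describe 8251 genes that share 3 hybridisations. Each vehicle array came from another replication, so culture, labelling and hybridisation all enter this spread and no test could be made.

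Above the 60th percentile 128 of 3301 genes differed at least 2-fold, and 60 of them were highest on the array of replication 1. Ccn2, a matricellular growth factor, had the widest spread, at 23903, 6410 and 2789 units. Egr1, an immediate early transcription factor, read 17126, 3535 and 3532, Plk2, a kinase induced by serum, 35191, 15008 and 7146, and Ccn1, a relative of Ccn2, 14158, 3730 and 3665. The procoagulant receptor F3 and the serum-induced Phlda1 were also highest on that array. Of 50 immediate early genes measured, 41 were highest on it, against 2272 of all 8251 genes (27.5%). Their summed signal was 554693, 302300 and 242325 units.

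Of the remaining genes among the 12 of widest spread, Kcnk1 and Cldn7 were highest on the array of replication 2. Kcnk1, a background potassium channel, read 6289, 21174 and 5272 units and so was high only on the array of replication 2. Pcm1, a centriolar satellite protein, read 4621, 1209 and 4226 and was low only there. Cldn4 and Cldn7 were low on the array of replication 3, while Cldn4 and Pcm1 were highest on that of replication 1. At the other end, the 6 genes of smallest spread were Itpa (3114 ± 3.16), Pfkl (41718 ± 77.8), Pkm (73118 ± 334), Tead2 (4059 ± 22.8), Gsk3a (28093 ± 166) and Psat1 (11026 ± 67.1). These were picked as extremes of 3301 genes, so they do not show that these genes vary less than others.

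**Figure D4:**
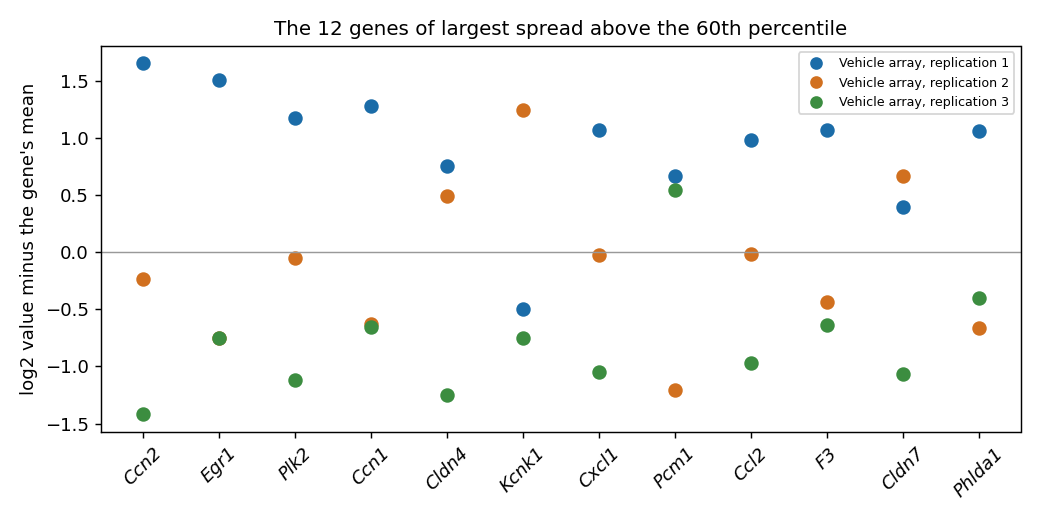
The log2 value of each vehicle array minus the gene's mean, for the 12 genes of largest SD above the 60th percentile, in order of SD. Blue, orange and green points are replications 1, 2 and 3. Kcnk1 and Cldn7 were highest in replication 2 and the other genes in replication 1. All but Pcm1 and Phlda1 were lowest in replication 3.

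The aldosterone arrays, taken from the same replications, gave nearly the same bands after scaling; the deposited values of 1 of them were on a lower scale, with a trimmed mean of 86.5. Of the 826 genes in the top 10% with vehicle, 795 (96.2%) were so with aldosterone, and of the 2679 near background 2520 (94.1%) were. No gene crossed from 1 of these bands to the other, with 0 in each direction. These overlaps do not measure an effect of the hormone, which was not tested.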

How the data were processed

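The authors deposited 1 intensity per probe set and array on a linear scale, per the labels from cRNA made of total RNA; which scanner and summarisation software made them is not given in the sources used here. Deposited trimmed means of the vehicle arrays lay between 2488 and 2493, so scaling to their mean of 2491 changed values by factors of 0.999 to 1.00. The deposited table held 12422 probe sets and 0 whose name begins with AFFX. Trimming removed 2% at each end, and the pseudocount, 69.5, was the 10th percentile of the scaled values. Of the probe sets, 10833 had 1 gene symbol in the platform annotation, 396 several and 1193 none, and only the first were named; Entrez identifiers matched RefSeq genes of GRCm38.p6 for 10817 and changed 0 symbols.

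Analysis used Python 3.11.15, numpy 2.4.6, pandas 2.3.3 and SciPy 1.17.1, and the steps were tested on simulated data. No group was tested against another. The number of arrays limits the precision, and the labels do not say more about the cultures than that the experiment was repeated. Members and 32 gene lists were chosen with earlier results of these data known. Genes were named by rule: the 30 brightest, up to 4 brightest and 3 near-background members of each list, all principal cell, water channel and corticosteroid genes, markers of other cells in the top 10%, and the 12 of largest and 6 of smallest SD above the 60th percentile. Other names were chosen after their values were seen or were fixed as cell type markers. Alternatives changed the scaling, the pseudocount, the probe set chosen, filters, the reference for low signal, the band and the arrays included.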

Additional observations from a re-analysis of the deposited data

How the results depend on the processing

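The bands depended little on scaling and pseudocount. Of 62 counts of list members by band, 62 stayed within 1.5 times under quantile normalisation, unscaled values, either other pseudocount and all 6 arrays, and 61 to 62 did when a vehicle array was left out. The choice of probe set mattered more: with the dimmest probe set 20 counts moved and 58 of 253 named genes shifted by over 10 percentiles. The list of keratins and junctions then had 6 members in the top 10%, and 7 with the mean of a gene's probe sets, instead of 12. The proximal tubule list had 14 near background with the dimmest probe set instead of 23. The limit of low signal was set anew from the tissue-restricted genes in each setting, so the limit moved along with the probe sets. With only probe sets without a letter before _at, 15 proximal tubule and 14 fibroblast markers, of fewer measured, were near background instead of 23 each. With only genes above the pseudocount on all 3 arrays, 21 leukocyte markers were, instead of 33. That filter takes out dim genes and left 7266 of 8251, so fewer markers were measured and a lower count was built in. Setting the reference at the median of the tissue-restricted list gave 11 proximal tubule and 13 fibroblast markers near background, and its 90th percentile gave 35 proximal tubule markers. Taking the highest 5% left 328 genes in it on every array, 19 oxidative phosphorylation, 17 cell cycle, 11 proteasome and 6 keratin and junction genes, as a narrower band must. The spread between vehicle arrays, a median SD of 0.280, was 0.312 with a pseudocount of 1, 0.235 with the 25th percentile and 0.311 with the dimmest probe set. Without vehicle replicate 1, 2 or 3 it ran from 0.199 to 0.243. These last values are SDs of 2 arrays, so they cannot be set beside the SD of 3 arrays. No paired analysis was possible because the results come from no test and use the vehicle arrays alone.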

Other observations

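The top 10% of genes held 52.6% of the summed signal of all genes, the 30 brightest 8.46%, and the genes near background 1.92%. These are shares of probe set signal and not of transcripts. Of the 114 tissue-restricted genes, 29 lay above the limit of low signal by its definition, up to percentile 71.9 for the lens gene Crybb2, which read 3023, 5206 and 3093 units. The sperm nuclear protein gene Tnp1 was at percentile 62.9 and the pituitary hormone gene Lhb at 59.8. Of the leukocyte list 4 genes, Cd3e, Cd3g, Cd8a and Ms4a1, also belong to that reference, and of the chaperone list Cryaa does.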
